A study of Mus musculus with 21 samples.

Results

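Retinoid uptake and signalling genes were examined in mouse CD4 T cells: Stra6, Crabp2, Dhrs3, Rara, Rarg and Rxra, written STRA6, CRABP2, DHRS3, RARA, RARG and RXRA in the expression table, where they are 6 of 23415 gene rows. The genes were chosen by name after levels of these samples had been seen, so their own levels are given as a description, with no test, and they support nothing beyond themselves. The values are TPM, reads per transcript length scaled to a fixed library total.

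Retinol, the circulating form of vitamin A, reaches cells bound to retinol-binding protein and enters some of them through the receptor Stra6. Inside the cell it is oxidised to retinal and then to retinoic acid, which Crabp2 carries to nuclear receptors of the RAR family, and these bind DNA as pairs with an RXR. In CD4 T cells retinoic acid is known to favour regulatory T cells induced by TGF-b and to induce receptors for homing to the gut, and its effect on Th1 and Th17 cells has been reported to depend on its level and on the receptor Rara.

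All 7 groups came from mice heterozygous for an Il23r reporter allele (Il23r wt/eGFP), in which eGFP is transcribed with the gene and the reporter copy makes no working receptor, so every group carried 1 disrupted copy. Naive cells (CD44low, CD62Lhigh, CD25-) sorted from spleen and lymph nodes were grown for 5 days on bound antibodies against CD3 and CD28 and then sorted by eGFP into GFPpos and GFPneg cells. The groups, with the number of libraries used of those made, were IL-12+IL-21 GFPpos (3 of 3) and GFPneg (2 of 3), TGFb+IL-6 GFPpos (1 of 3) and GFPneg (2 of 3), IL-1b+IL-6+IL-23 GFPpos (3 of 3) and GFPneg (3 of 3), and IL-12 GFPneg (2 of 3). Doses were 20 ng/ml for IL-12, IL-21, IL-1b and IL-23, 25 ng/ml for IL-6 and 2 ng/ml for TGF-b. The labels give neither the age nor the sex of the mice, and nothing in them says that replicates came from separate animals or cultures, so the spread between replicates may be technical. Of the culture with IL-12 alone, GFPneg cells were the group analysed here.

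Of 21 libraries, the 16 used had 7522 to 9248 genes at 1 TPM or more, and the 5 left out had 190 to 5608, below the minimum of 7000. The number of reads behind a TPM value is unknown, so no counting interval is given. The row of the reporter sequence stood at 9.64 to 35.0 TPM in GFPpos libraries and 0 to 5.29 TPM in GFPneg libraries, and within each culture the sorts did not overlap. The 7 T cell markers summed to 1234 to 2315 TPM. Lyz2 of myeloid cells and Ncr1 of natural killer cells were listed at 0 in all 16 libraries, and the summed level of 7 markers of myeloid and dendritic cells did not pass 3.39 TPM. Cd8a of CD8 T cells did not pass 0.29 TPM, and Cd8b1 stood at 4.89 to 17.5 TPM, with its highest value in the TGFb+IL-6 GFPpos library; its part in the levels there was not tested.

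The places of the genes are given in GRCm38 with GENCODE M21, in which all are protein-coding. Stra6 lies on the plus strand at chr9:58063788-58153996, Crabp2 on the plus strand at chr3:87948666-87953376 and Dhrs3 on the plus strand at chr4:144892827-144928209. The receptor Rara lies on the plus strand at chr11:98927818-98974942, Rarg on the minus strand at chr15:102234938-102257517 and Rxra on the plus strand at chr2:27676440-27762957. Stra6 overlaps Ccdc33 and Dhrs3 lies within the span of Vps13d. Whether the read counting used strand is not given, so reads from the overlapping genes cannot be told apart, though Ccdc33 reached only 0.58 TPM and Vps13d only 0.63 TPM in any library used.

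RAR and RXR pairs are known to bind a direct repeat of a 6-base half-site, and the classic example with 5 bases between the copies stands before Rarb. The repeat near the start of Rarb and that near the start of Cyp26a1, which encodes an enzyme that degrades retinoic acid, are shown first as patterns of such a site, from RefSeq on GRCm38.p6, with the half-sites in capitals. Among the 5 members with promoter windows (all but Crabp2), Stra6 and Dhrs3 differed most between cultures in log2(TPM + 1). For comparison 1 of the 4 windows of Stra6, the only 1 with a half-site, and 1 of the 3 of Dhrs3 follow. Any half-site is again in capitals. The Stra6 window lies within the gene span given above.
Rarb, chr14:16575493-16575549, minus strand: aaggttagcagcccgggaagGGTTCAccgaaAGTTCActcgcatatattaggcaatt
Cyp26a1, chr19:37697756-37697812, plus strand, repeat read on the opposite strand: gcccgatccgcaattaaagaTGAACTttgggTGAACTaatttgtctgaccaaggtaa
Stra6, chr9:58133825-58134124, plus strand: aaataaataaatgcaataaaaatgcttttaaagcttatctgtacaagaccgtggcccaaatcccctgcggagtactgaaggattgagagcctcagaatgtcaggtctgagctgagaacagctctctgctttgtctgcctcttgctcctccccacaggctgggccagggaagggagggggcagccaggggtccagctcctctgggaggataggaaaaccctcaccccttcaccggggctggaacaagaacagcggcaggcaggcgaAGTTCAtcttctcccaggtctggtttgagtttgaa
Dhrs3, chr4:144892577-144892876, plus strand: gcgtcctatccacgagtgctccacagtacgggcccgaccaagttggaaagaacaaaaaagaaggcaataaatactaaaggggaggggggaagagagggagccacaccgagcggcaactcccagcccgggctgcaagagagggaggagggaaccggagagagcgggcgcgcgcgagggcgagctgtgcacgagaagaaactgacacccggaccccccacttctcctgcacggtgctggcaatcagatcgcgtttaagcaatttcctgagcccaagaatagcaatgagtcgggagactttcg
The Rarb repeat begins 53 bases before the start site and the Cyp26a1 repeat 32 bases before it. The half-site searched was AGGTCA, the consensus, together with AGTTCA, the second copy at Rarb, with GGGTCA, and with GGTTCA, the first copy at Rarb, on both strands of windows from 250 bases before to 50 after each start. A half-site was found in 43.7% of 32851 windows and in 5 of the 15 windows of the retinoid genes (1 of 4 of Stra6, 0 of 3 of Dhrs3, 2 of 4 of Rara, 1 of 2 of Rarg and 1 of 2 of Rxra). A direct repeat spaced by 5 bases was found in 0.0974% of all windows, and by 1 or 2 bases in 0.222% and 0.268%. None of these repeats was found in the 15 windows, which says only that these letters are not in these stretches.

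Crabp2, the carrier that hands retinoic acid to its receptors, was the most abundant of the 6 in most libraries and had the largest difference between cultures on the log2(TPM + 1) scale (5.34, GFPpos cells with IL-12+IL-21 minus those with IL-1b+IL-6+IL-23). With a pseudocount of 0.1 this difference was 5.39, and that of Dhrs3, listed at 0 with TGFb+IL-6, was larger (-7.26, TGFb+IL-6 GFPneg minus IL-1b+IL-6+IL-23 GFPneg). In IL-12+IL-21 cultures it stood at 1201, 1144 and 1038 TPM in GFPpos libraries, against 662 and 508 TPM in GFPneg libraries. With TGFb+IL-6 it stood at 164 TPM in the GFPpos library, against 37.7 and 51.1 TPM in GFPneg libraries. With IL-1b+IL-6+IL-23 it stood at 21, 27.9 and 32.6 TPM in GFPpos libraries, against 27.4, 32.0 and 37.0 TPM in GFPneg libraries. IL-12 GFPneg libraries had 607 and 524 TPM, so both cultures with IL-12 lay above both cultures with IL-6 in every library used. By its mean of 1128 ± 82.4 TPM (SD, n = 3) Crabp2 ranked 150 among the 13287 genes above 0 in IL-12+IL-21 GFPpos cells, and by 27.2 ± 5.83 TPM (SD, n = 3) it ranked 2017 of 12965 in the GFPpos cells of the IL-1b+IL-6+IL-23 culture. The ratio of these means was 41.5. These are bulk samples, in which fewer cells of a type and less RNA per cell cannot be told apart.

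Crabp2 levels of the reporter sorts did not overlap with TGFb+IL-6 or with IL-12+IL-21, and overlapped in the IL-1b+IL-6+IL-23 culture. With so few libraries per group a lack of overlap, here and below, is weak evidence of a difference. The share of all genes without overlap is not given here. The GFPpos mean was 1.93 times the GFPneg mean with IL-12+IL-21. It was 3.69 times the GFPneg mean with TGFb+IL-6, where 1 GFPpos library was used, and 0.845 times with IL-1b+IL-6+IL-23. On the log2(TPM + 1) scale the differences, GFPpos minus GFPneg, were 0.96, 1.88 and -0.25 in that order of cultures. Scaling libraries by median ratios gave 0.67 with IL-12+IL-21 and 1.40 with TGFb+IL-6, and taking all 21 libraries gave 0.06 with TGFb+IL-6. Among GFPneg cells the cultures with IL-12+IL-21 and with IL-12 overlapped, at means of 585 ± 109 and 566 ± 58.7 TPM (SD, n = 2 each), a log2 difference of 0.04, smaller than the spread of these libraries. IL-1b+IL-6+IL-23 GFPneg cells averaged 0.0569 times the level of IL-12 GFPneg cells, a log2 difference of -4.10.

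**Figure D1:**
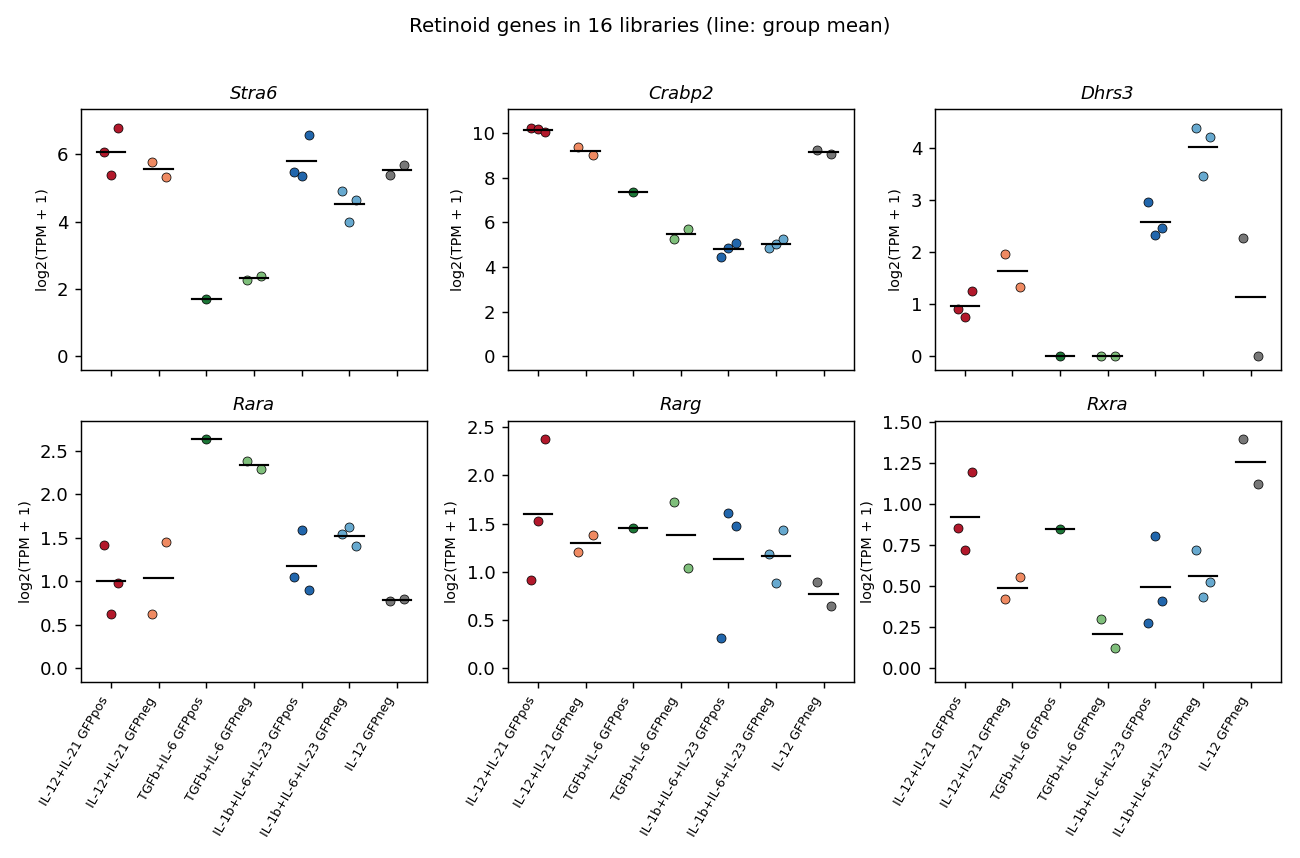
The level of each of the 6 retinoid genes, as log2(TPM + 1) on the vertical axis, is plotted for the 16 libraries used, by group along the horizontal axis; points are libraries, lines are group means, and each panel has its own axis. Crabp2 is highest in the IL-12+IL-21 GFPpos libraries (1038 to 1201 TPM), Stra6 lowest in the TGFb+IL-6 libraries (2.29 to 4.23 TPM), and Dhrs3 is at 0 in the TGFb+IL-6 libraries.

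Stra6, the membrane receptor through which retinol enters the cell, was low in both TGFb+IL-6 sorts and at 15.01 TPM or more in every other library used. It stood at 2.29 TPM in the TGFb+IL-6 GFPpos library, against 3.85 and 4.23 TPM in GFPneg libraries. Levels with IL-1b+IL-6+IL-23 were 43.4, 39.7 and 94.1 TPM in GFPpos libraries, against 29.3, 15.01 and 23.9 TPM in GFPneg libraries. Levels with IL-12+IL-21 were 66.3, 40.5 and 109 TPM in GFPpos libraries, against 53.5 and 39.1 TPM in GFPneg libraries. IL-12 GFPneg libraries had 40.7 and 49.9 TPM, and the groups with IL-12 and the IL-1b+IL-6+IL-23 GFPpos group overlapped one another. Replicate 3 of IL-12+IL-21 GFPpos, like replicate 3 of IL-1b+IL-6+IL-23 GFPpos, lay above the others of their groups.

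In order of mean Stra6 the groups were IL-12+IL-21 GFPpos, IL-1b+IL-6+IL-23 GFPpos, IL-12+IL-21 GFPneg, IL-12 GFPneg, IL-1b+IL-6+IL-23 GFPneg, TGFb+IL-6 GFPneg and TGFb+IL-6 GFPpos, and each of the first 4 overlapped with the one next to it among these 4, while no later pair of neighbours overlapped. TGFb+IL-6 GFPneg cells averaged 4.04 ± 0.269 TPM (SD, n = 2), against 22.7 ± 7.21 TPM (SD, n = 3) in IL-1b+IL-6+IL-23 GFPneg cells, a log2 difference of -2.19. Within IL-1b+IL-6+IL-23 the GFPpos mean was 2.60 times the GFPneg mean, with no overlap. The sorts overlapped with IL-12+IL-21, where the ratio was 1.56.

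Dhrs3, an enzyme that turns retinal back into retinol and is itself known to be induced by retinoic acid, had a pattern of its own among the 6. Levels with IL-1b+IL-6+IL-23 were 6.79, 4.05 and 4.49 TPM in GFPpos libraries, against 19.9, 10.03 and 17.6 TPM in GFPneg libraries. Those with IL-12+IL-21 were 0.88, 0.69 and 1.40 TPM in GFPpos libraries, against 2.89 and 1.51 TPM in GFPneg libraries. In the libraries used Dhrs3 was thus lower in GFPpos than in GFPneg cells of both cultures, with no overlap, at ratios of means of 0.45 with IL-12+IL-21 and 0.322 with IL-1b+IL-6+IL-23. The gene was listed at 0 in the TGFb+IL-6 GFPpos library and in both TGFb+IL-6 GFPneg libraries, and such a 0 may reflect a transcript that could not be estimated. IL-12 GFPneg libraries had 3.84 and 0 TPM, so this pair did not settle a level. IL-1b+IL-6+IL-23 GFPneg minus IL-12 GFPneg was 2.89 on the log2 scale with both, 4.02 without IL-12 GFPneg replicate 2 and 1.75 without replicate 3.

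**Figure D2:**
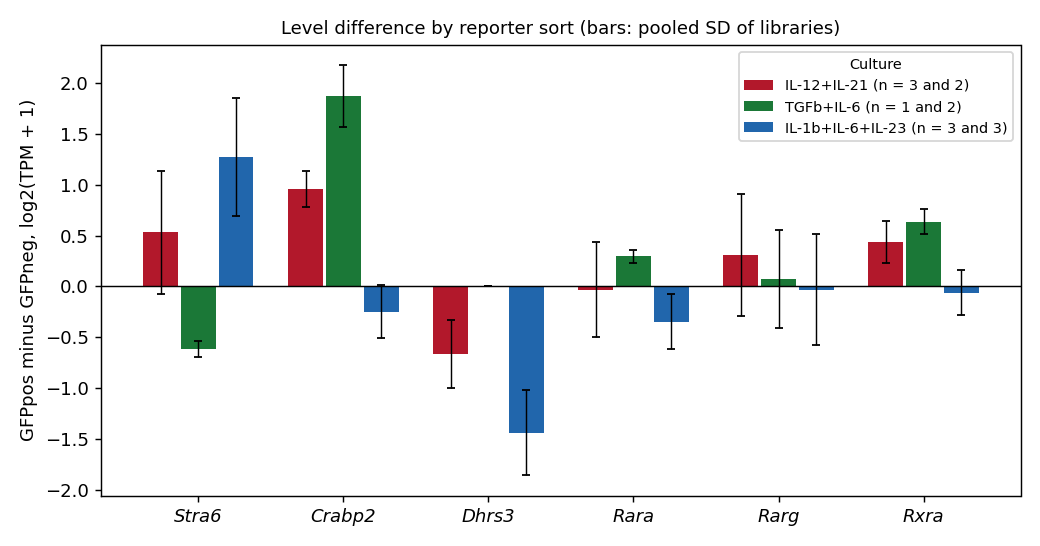
The difference of mean log2(TPM + 1), GFPpos minus GFPneg, is on the vertical axis for each of the 6 genes and 3 cultures; error bars are the pooled SD of the libraries, which for TGFb+IL-6 comes from the GFPneg pair alone. Crabp2 is above 0 with TGFb+IL-6 (1.88) and with IL-12+IL-21 (0.96), Stra6 is below 0 with TGFb+IL-6 (-0.61) and above 0 with IL-1b+IL-6+IL-23 (1.28), while Dhrs3 is below 0 with IL-1b+IL-6+IL-23 (-1.44).

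The nuclear receptors were low, at no more than 5.18 TPM in any library used. Rara, a receptor of retinoic acid, was at 5.18 TPM in the TGFb+IL-6 GFPpos library, against 4.2 and 3.87 TPM in GFPneg libraries. Its levels with IL-12+IL-21 were 1.66, 0.54 and 0.97 TPM in GFPpos libraries, against 0.54 and 1.73 TPM in GFPneg libraries. Its levels with IL-1b+IL-6+IL-23 were 1.06, 2.01 and 0.86 TPM in GFPpos libraries, against 1.91, 2.08 and 1.64 TPM in GFPneg libraries. IL-12 GFPneg libraries had 0.71 and 0.74 TPM, and the 3 TGFb+IL-6 libraries lay above all 13 others. TGFb+IL-6 GFPneg cells averaged 2.15 times the level of IL-1b+IL-6+IL-23 GFPneg cells, which averaged 2.59 times that of IL-12 GFPneg cells, each without overlap. The difference of the sorts with TGFb+IL-6 was 0.30 on the log2 scale and -0.10 with median-ratio scaling, so its direction depended on the scaling.

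Rarg, a second receptor of retinoic acid, ranged from 0.24 to 4.18 TPM, and groups next to each other in order of mean all overlapped. Groups further apart could separate, as IL-12+IL-21 GFPneg (1.31 and 1.61 TPM) did from IL-12 GFPneg (0.86 and 0.57 TPM). The highest Rarg library was IL-12+IL-21 GFPpos replicate 3, beside 0.88 and 1.89 TPM in the other libraries of that group. Rxra, the partner with which RARs bind DNA, reached 1 TPM in 3 of the 16 libraries: both IL-12 GFPneg libraries, at 1.63 and 1.18 TPM, and IL-12+IL-21 GFPpos replicate 3, at 1.29 TPM. IL-12+IL-21 GFPneg libraries had 0.34 and 0.47 TPM, below both IL-12 GFPneg libraries. The GFPpos mean of Rxra was 2.26 times the GFPneg mean with IL-12+IL-21 and 5 times with TGFb+IL-6 (1 GFPpos library), each without overlap. With IL-1b+IL-6+IL-23 the Rxra sorts overlapped, at a ratio of 0.896. All these Rxra means lay below 1 TPM. Rxrb, the related partner, stood at 2.14 to 7.58 TPM and above Rxra in 16 of 16 libraries. Rarb was above 0 in 5 of 16 libraries and did not pass 0.28 TPM, and Rxrg was listed at 0 throughout.

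Genes with a pattern over the 16 libraries most like each member were taken by Pearson's r of log2(TPM + 1). The libraries share their groups, so r is only a description. Crabp2 was most like Samhd1 (r = 0.978), Il10ra (r = 0.975), a chain of the IL-10 receptor, and Dclk1 (r = 0.972). Samhd1, an enzyme that breaks down nucleotides, averaged 166 TPM in GFPpos cells with IL-12+IL-21, against 23.4 TPM in those with IL-1b+IL-6+IL-23. Stra6 was most like Slc29a2 (r = 0.947), a nucleoside transporter, Pgrmc1 (r = 0.937) and Ermn (r = 0.93). Ermn had 0.07 TPM in the TGFb+IL-6 GFPpos library and a mean of 45.4 TPM in IL-12+IL-21 GFPpos cells. Dhrs3 was most like Irf7 (r = 0.913), a transcription factor of the interferon response, Ccdc184 (r = 0.911) and Ikbke (r = 0.906), a kinase of the same response. With IL-1b+IL-6+IL-23, Irf7 averaged 39.9 TPM in GFPpos cells, against 57.0 TPM in GFPneg cells. Rara was most like Fam129b (r = 0.885), Arid5a (r = 0.884) and Acsbg1 (r = 0.868). Rarg (Ube4b, Arhgap27 and Gnl1) and Rxra (Clpb, Cops7a and Cfp) had nearest genes at r of at most 0.833 and 0.883.

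The rest of the retinoid pathway was described with 73 further genes of transport, synthesis, degradation, reception, RXR partnership, coregulation and response, of which 34 had at least 1 TPM in at least 3 libraries and were tested among 9592 genes. Enzymes that make retinoic acid from retinal were nearly absent: Aldh1a1 was listed at 0 in every library, and Aldh1a2 and Aldh1a3 did not pass 0.64 and 0.15 TPM. The enzymes that degrade it, Cyp26a1, Cyp26b1 and Cyp26c1, did not pass 0.07 TPM. Of genes known to respond to retinoic acid in T cells, the gut-homing receptor Ccr9 did not pass 0.12 TPM, and Itgb7, a subunit of the gut-homing integrin, ranged from 0.49 to 7.14 TPM. The most abundant genes of their roles were Fabp5 (70.1 to 192 TPM), Adh5 (56.6 to 130 TPM), Dgat1 (20.5 to 141 TPM), Nr4a1 (14.3 to 106 TPM), Tgm2 (11.01 to 164 TPM) and Hdac3 (15.5 to 31.5 TPM).

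Fabp5 is known to carry retinoic acid to the receptor Ppard, where Crabp2 carries it to RARs, so the pair was set side by side in each library. The level of Crabp2 over that of Fabp5 was 7.83 to 11.2 in IL-12+IL-21 GFPpos libraries, against 5.94 to 7.98 in GFPneg libraries. It was 2.34 in the TGFb+IL-6 GFPpos library, against 0.412 to 0.616 in GFPneg libraries. In IL-1b+IL-6+IL-23 libraries it was 0.109 to 0.191 in GFPpos and 0.198 to 0.234 in GFPneg cells, and in IL-12 GFPneg libraries 5.19 to 7.11. Crabp2 was thus above Fabp5 in every library with IL-12 and in the TGFb+IL-6 GFPpos library, and below it in the 8 others. Ppard itself did not pass 0.42 TPM.

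**Figure D3:**
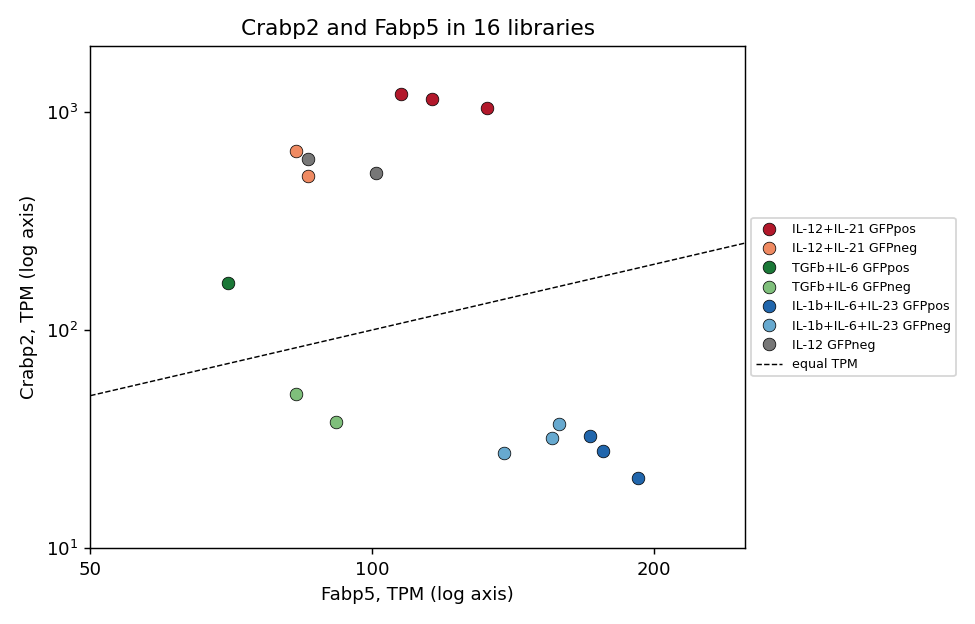
Crabp2 on the vertical axis is plotted against Fabp5 on the horizontal axis, both in TPM on log axes; each point is 1 of the 16 libraries and the dashed line marks equal levels. Libraries with IL-12 lie above the line (ratios of 5.19 to 11.2) and IL-1b+IL-6+IL-23 libraries below it (0.109 to 0.234).

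More pathway genes were called in the TGFb+IL-6 culture set against the IL-1b+IL-6+IL-23 culture than in any other comparison. The share of all genes called was also largest there. In GFPneg cells limma, with Benjamini-Hochberg adjustment over all genes tested, called 7 of the 34, of which 3 were higher with TGFb+IL-6 (Tgm2 and Cd38 among them) and 4 lower (Nr4a1, Fabp5, Adh5 and Ncoa2). Of all genes 15.4% were called in this comparison, 4.83% higher and 10.6% lower, and the median log2 difference was -0.18 over the pathway genes and -0.23 over all genes. Tgm2, a transglutaminase known to be induced by retinoic acid, had 110 and 112 TPM in TGFb+IL-6 GFPneg libraries, against 18.8, 19.5 and 17.4 TPM in IL-1b+IL-6+IL-23 GFPneg libraries. Its log2 difference was 2.52 ± 0.18 (SE, limma adjusted p = 2.19e-07), and the TGFb+IL-6 GFPpos library had 164 TPM. Cd38, an enzyme of the cell surface that consumes NAD and is known to be induced by retinoic acid in myeloid cells, had 3.91 and 4.28 TPM in TGFb+IL-6 GFPneg libraries, against 0.31, 0.79 and 0.74 TPM in IL-1b+IL-6+IL-23 GFPneg libraries (log2 difference 1.67). Cd38 reached 1 TPM in 5 libraries, 3 of them of the TGFb+IL-6 culture, and so met the minimum for testing through the culture in which it was higher. Its call and the counts of genes called and of genes higher are therefore given as a description. In the fit with no minimum the limma adjusted p of Cd38 was 0.00383. Tgm2 and Cd38 were at their highest in the TGFb+IL-6 libraries, where Stra6 was lowest and Dhrs3 was listed at 0. Of the genes whose repeats are shown above, Rarb did not pass 0.28 TPM and Cyp26a1 was listed at 0 in every library used. Whether retinoic acid had a part in the levels of Tgm2 and Cd38 was not tested. The other response genes tested were not called between these GFPneg groups and went both ways. Mean levels with TGFb+IL-6 were lower for Itga4 (0.3 against 1.68 TPM) and Hic1 (0.13 against 0.78 TPM). They were higher for Itgb7 (5.2 against 2.75 TPM) and Asb2 (1.265 against 0.407 TPM).

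The genes lower with TGFb+IL-6 were of other roles. Nr4a1, a nuclear receptor known to be induced by the T cell receptor and able to pair with RXR, averaged 20.3 ± 8.45 TPM (SD, n = 2) in TGFb+IL-6 GFPneg cells, against 100.4 ± 6.30 TPM (SD, n = 3) in IL-1b+IL-6+IL-23 GFPneg cells (log2 difference -2.31 ± 0.28, limma adjusted p = 3.76e-05). Fabp5 averaged 87.1 ± 6.10 TPM with TGFb+IL-6, against 151 ± 10.8 TPM with IL-1b+IL-6+IL-23 (limma adjusted p = 0.00274). Adh5, an alcohol dehydrogenase, averaged 62.0 ± 7.65 TPM in the TGFb+IL-6 group, against 110 ± 8.57 TPM in the IL-1b+IL-6+IL-23 group (limma adjusted p = 0.00624). Ncoa2, a coactivator of nuclear receptors, averaged 0.72 ± 0.0566 TPM with TGFb+IL-6, against 2.28 ± 0.301 TPM with IL-1b+IL-6+IL-23 (limma adjusted p = 0.0166). Ncoa2 reached 1 TPM in 13 libraries, none of the TGFb+IL-6 culture, and so met the minimum for testing through the other cultures. Fabp5 missed the threshold with median-ratio scaling (adjusted p = 0.092), and without TGFb+IL-6 GFPneg replicate 2 (0.0503). Adh5 missed it without replicate 1 of that group (0.0784) and Ncoa2 without replicate 1 (0.0706) or replicate 2 (0.1195). Tgm2 and Nr4a1 passed in all 5 fits that left out 1 library.

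**Figure D4:**
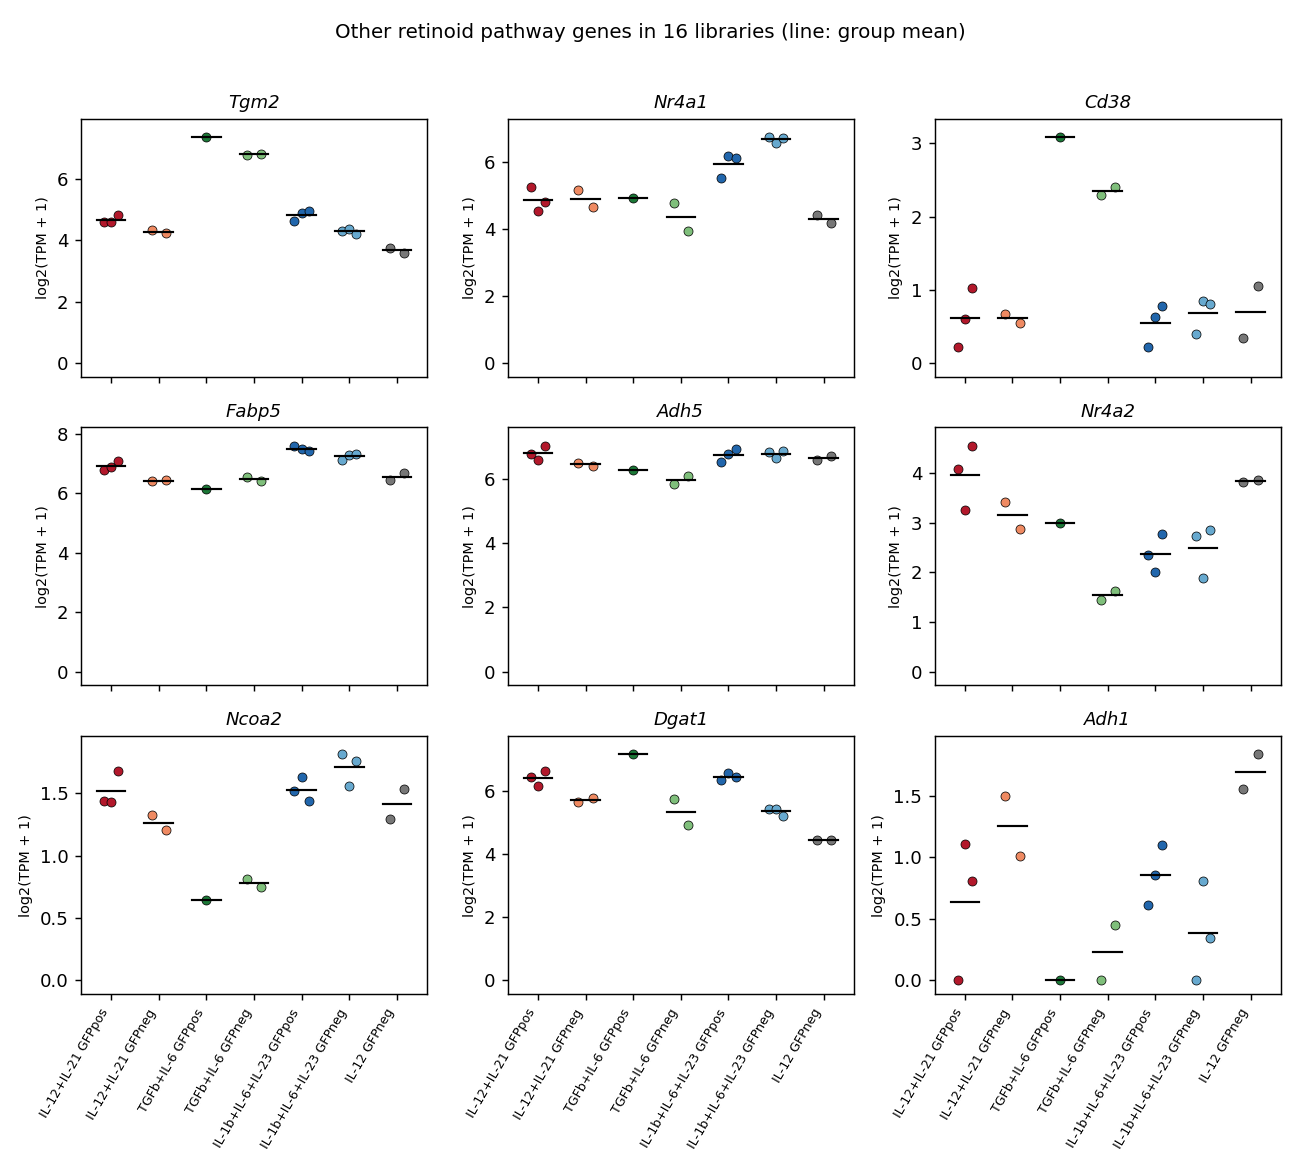
Of the further pathway genes that passed the limma test in at least 1 comparison, 9 are plotted as log2(TPM + 1) on the vertical axis for the 16 libraries, by group along the horizontal axis; points are libraries and lines are group means. Tgm2 and Cd38 are highest in the 3 TGFb+IL-6 libraries, Nr4a1 in IL-1b+IL-6+IL-23 GFPneg libraries (93.4 to 106 TPM), and Dgat1 is higher in GFPpos than in GFPneg libraries of each of the 3 cultures with both sorts.

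Between IL-1b+IL-6+IL-23 and IL-12 GFPneg cells limma called 5 of the 34 pathway genes, 3 higher (Nr4a1, Fabp5 and Dgat1) and 2 lower (Nr4a2 and Adh1), beside 7.01% of all genes, 2.71% higher and 4.3% lower. The median log2 difference was 0.08 over the pathway genes and -0.09 over all genes. Nr4a1 had 106, 93.4 and 102 TPM in IL-1b+IL-6+IL-23 GFPneg libraries, against 20.4 and 16.9 TPM in IL-12 GFPneg libraries (log2 difference 2.37 ± 0.28, limma adjusted p = 5.73e-05), and passed in every fit that left out 1 library. Fabp5 averaged 151 ± 10.8 TPM with IL-1b+IL-6+IL-23 (SD, n = 3), against 93.2 ± 11.03 TPM with IL-12 (SD, n = 2; limma adjusted p = 0.0126), and missed the threshold without IL-12 GFPneg replicate 2 (0.136). Nr4a2, of the same family as Nr4a1, went the other way, at 4.86 ± 1.89 TPM with IL-1b+IL-6+IL-23, against 13.4 ± 0.311 TPM with IL-12 (limma adjusted p = 0.0421). Adh1, an alcohol dehydrogenase that can oxidise retinol, averaged 0.34 ± 0.380 TPM with IL-1b+IL-6+IL-23, against 2.25 ± 0.453 TPM with IL-12 (limma adjusted p = 0.0330). Adh1 reached 1 TPM in 6 libraries, with both IL-12 GFPneg libraries among them and no IL-1b+IL-6+IL-23 GFPneg library. Dgat1 averaged 40.0 ± 3.77 TPM in the IL-1b+IL-6+IL-23 group, against 20.5 ± 0.0141 TPM in the IL-12 group (limma adjusted p = 0.0190), and missed the threshold without IL-1b+IL-6+IL-23 GFPneg replicate 1 or 2 or either IL-12 library (0.0510 to 0.124). Nr4a2 missed the threshold without IL-1b+IL-6+IL-23 GFPneg replicate 1 or 2 or either IL-12 library (0.0528 to 0.204), and Adh1 without replicate 1 or 3 or either IL-12 library (0.0733 to 0.224).

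In GFPpos cells of the IL-12+IL-21 culture set against those of the IL-1b+IL-6+IL-23 culture, where Crabp2 differed most, limma called 3 of the 34 pathway genes, 1 higher and 2 lower, beside 4.96% of all genes, 3.59% higher and 1.38% lower. Nr4a2 was higher, at 15.9, 8.55 and 22.5 TPM in libraries of the IL-12+IL-21 culture, against 4.07, 3.02 and 5.87 TPM in those of the IL-1b+IL-6+IL-23 culture (log2 difference 1.59 ± 0.34, limma adjusted p = 0.00952). Fabp5 was lower, with 107, 116 and 133 TPM in IL-12+IL-21 libraries, against 192, 176 and 171 TPM in IL-1b+IL-6+IL-23 libraries (log2 difference -0.60 ± 0.14, limma adjusted p = 0.0169). Nr4a1 was also lower, with 37.2, 21.9 and 26.5 TPM in IL-12+IL-21 libraries, against 45.0, 71.0 and 67.8 TPM in IL-1b+IL-6+IL-23 libraries (log2 difference -1.08 ± 0.25, limma adjusted p = 0.0183). The median log2 difference was 0.08 over the pathway genes and 0.15 over all genes. Each of these calls missed the threshold without some library. Nr4a2 did so without IL-12+IL-21 GFPpos replicate 3 (0.05785) or IL-1b+IL-6+IL-23 GFPpos replicate 2 (0.0602), Fabp5 without IL-12+IL-21 GFPpos replicate 1 (0.1001) or IL-1b+IL-6+IL-23 GFPpos replicate 1 (0.0820) or 2 (0.0622), and Nr4a1 without replicate 2 (0.0780) or 3 (0.0692) of IL-12+IL-21 GFPpos or replicate 2 (0.0989) or 3 (0.0789) of IL-1b+IL-6+IL-23 GFPpos.

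Dgat1, which makes triglycerides and can also esterify retinol for storage, was the only pathway gene called between reporter sorts. Levels with IL-1b+IL-6+IL-23 were 79.4, 93.8 and 85.1 TPM in GFPpos libraries, against 42.1, 42.2 and 35.6 TPM in GFPneg libraries (log2 difference 1.09 ± 0.20, limma adjusted p = 0.0234). With TGFb+IL-6 it had 141 TPM in the GFPpos library, against 51.9 and 29.2 TPM in GFPneg libraries (log2 difference 1.83 ± 0.30, limma adjusted p = 0.0239). With IL-12+IL-21 it had 85.5, 69.3 and 98.5 TPM in GFPpos libraries, against 48.7 and 53.1 TPM in GFPneg libraries (log2 difference 0.71 ± 0.22, limma adjusted p = 0.176), which missed the threshold although the libraries did not overlap. The call with IL-1b+IL-6+IL-23 was lost without any 1 of the 6 libraries (0.0564 to 0.117), and that with TGFb+IL-6, which rests on 1 GFPpos library given the spread of the other groups, without GFPneg replicate 2 (0.0976). Of all genes 0.427% were called between the sorts with IL-1b+IL-6+IL-23 (0.344% higher, 0.0834% lower). With TGFb+IL-6 the share was 0.323% (0.261% higher, 0.0626% lower), and with IL-12+IL-21 it was 0.156% (0.115% higher, 0.0417% lower). In the IL-12+IL-21 culture limma called 0 of the 34 pathway genes, with 6 at an unadjusted p under 0.05, beside 14.5% of all genes at that p.

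Among GFPneg cells with IL-12, adding IL-21 went with a higher level of Dgat1, which had 48.7 and 53.1 TPM in GFPneg libraries of the IL-12+IL-21 culture, against 20.6 and 20.5 TPM in IL-12 GFPneg libraries (log2 difference 1.27 ± 0.25, limma adjusted p = 0.0258). It was the 1 pathway gene of 34 called there, beside 0.761% of all genes (0.313% higher, 0.448% lower), and the call was lost without any 1 of the 4 libraries (0.0819 to 0.212). The median log2 difference over the pathway genes, beside that over all genes, was 0.01 and -0.09 in this comparison, 0.25 and 0.24 between the sorts with IL-12+IL-21, 0.48 and 0.37 with TGFb+IL-6, and 0.10 and 0.07 with IL-1b+IL-6+IL-23.

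Whether the difference between sorts was itself different between cultures was tested for the 34 pathway genes by limma interaction terms, added after the data had been seen, and 0 were called in each of 3 pairs of cultures. For TGFb+IL-6 against IL-1b+IL-6+IL-23, 0.0834% of all genes were called, and 5 of the 34 were at an unadjusted p under 0.05, beside 9.37% of all genes. For TGFb+IL-6 against IL-12+IL-21, 0.0104% of all genes were called, and 3 of the 34 were at that p, beside 4.33% of all genes. For IL-12+IL-21 against IL-1b+IL-6+IL-23, 0% of all genes were called, and 2 of the 34 were at that p, beside 4.94% of all genes. The lowest adjusted p was 0.44, for Nr4a1 in the first pair.

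The 5 libraries below the gene minimum gave other levels of the same genes. Crabp2 was at 558 TPM in IL-12+IL-21 GFPneg replicate 3, 12.9 TPM in TGFb+IL-6 GFPpos replicate 2 and 62.4 TPM in IL-12 GFPneg replicate 1, and was listed at 0 in TGFb+IL-6 GFPpos replicate 3 and GFPneg replicate 3. Stra6 was at 131 TPM in TGFb+IL-6 GFPpos replicate 3, a library with 1157 genes at 1 TPM or more, and at no more than 1.47 TPM in the others. With all 21 libraries the sorts with TGFb+IL-6 differed in Stra6 by 1.75 on the log2 scale, in place of -0.61, and those with IL-12+IL-21 by 2.38, in place of 0.53. TGFb+IL-6 GFPneg minus IL-1b+IL-6+IL-23 GFPneg was then -1.38 for Crabp2, in place of 0.45, and IL-1b+IL-6+IL-23 GFPneg minus IL-12 GFPneg 0.40 for Stra6, in place of -1.01. For Dhrs3, listed at 0 in IL-12+IL-21 GFPneg replicate 3, the sorts with IL-12+IL-21 overlapped and differed by -0.12, in place of -0.67. In that fit limma called 0 of the 36 pathway genes tested in each of the 7 comparisons, with 0 to 5 at an unadjusted p under 0.05. Of all 9657 genes in that fit 0 to 32 were called, and 79 to 584 were at an unadjusted p under 0.05.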

How the data were processed

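RNA was measured in 21 bulk libraries of cultured mouse CD4 T cells made with a modified SMART-Seq2 protocol (full-length cDNA, paired reads), per the labels' protocols. The authors deposited 1 table of TPM values per gene symbol, written in capitals, and every library sums to the same total, so depth is unknown and a rise of some transcripts lowers the shares of others. RSEM 1.2.31, Bowtie2 2.2.9, Trimmomatic 0.32 and the build GRCm38 are named in the submitters' processing notes, while the sources used here do not give their order, settings, annotation or use of strand.

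Libraries with at least 7000 genes at 1 TPM or more, 16 in all, were used. limma 3.58.1 in R 4.3.3 was fitted to log2(TPM + 1), a scale that understates changes of low genes, with group means, no block and a trended prior, on the 9592 genes with at least 1 TPM in at least 3 libraries. One spread was shared by all groups, p-values were Benjamini-Hochberg adjusted over all genes within each of 7 comparisons, and an adjusted p under 0.05 was called. The highest correlation between 2 libraries was 0.983, and none were merged.

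The 6 genes and the pathway list of 73 were chosen with earlier results of these data known. The text names all 6 genes, the pathway genes called in any comparison (up to 12), the most abundant gene of each role, and for each member the 3 genes most like it. One pathway gene that was called and some cell type markers are not reported here. Other genes named were chosen after their values were seen. The test was checked on simulated data, where it recovered 10% to 48% of log2 rises of 1 and 76% to 92% of rises of 2. A gene that was not called may therefore still have changed. Alternatives were a pseudocount of 0.1, no filter, median-ratio scaling, all 21 libraries, leaving out libraries over 50% ribosomal, the replicate number as a block and each library left out in turn. Comparisons that share a group of libraries are not independent of each other.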

Additional observations from a re-analysis of the deposited data

Results flagged for a closer look

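Stra6 went opposite ways between reporter sorts in a pair of cultures. GFPpos minus GFPneg was -0.61 on the log2(TPM + 1) scale with TGFb+IL-6 (2.29 TPM in 1 GFPpos library, against 3.85 and 4.23 TPM in GFPneg libraries) and 1.28 with IL-1b+IL-6+IL-23 (39.7 to 94.1 TPM in 3 GFPpos libraries, against 15.01 to 29.3 TPM in 3 GFPneg libraries). Every library used of each GFPpos group lay on 1 side of its GFPneg group, and the difference between the cultures was not tested. With TGFb+IL-6 a single GFPpos library can easily lie on 1 side of a pair, so the direction there carries little weight. The share of all genes that separate in this way is not given here. With all 21 libraries the TGFb+IL-6 difference was 1.75, so the opposite directions held only among the libraries used.

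Some libraries that the comparisons did not use had values above the highest IL-12 GFPneg library used. Stra6 was at 130.64 TPM in TGFb+IL-6 GFPpos replicate 3, of another culture, against 49.92 TPM in that highest library. This replicate had only 1157 genes at 1 TPM or more. Rara was at 3.09 TPM in TGFb+IL-6 GFPpos replicate 2 and 0.9 TPM in IL-12 GFPneg replicate 1, against 0.74 TPM in the highest IL-12 GFPneg library used. The 3.09 TPM lay below the TGFb+IL-6 libraries used (3.87 to 5.18 TPM). No group has more than 3 samples, so no single library could be marked as far from the others of its group.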

How the results depend on the processing

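Taking all 21 libraries moved the counts of all genes called to 6 with IL-12+IL-21 sorts, 0 with IL-1b+IL-6+IL-23 sorts (79 at an unadjusted p under 0.05), 0 with TGFb+IL-6 sorts (284), 2 for IL-12+IL-21 against IL-12, 16 for IL-1b+IL-6+IL-23 against IL-12, 16 for TGFb+IL-6 against IL-1b+IL-6+IL-23 and 32 between the GFPpos groups, and the pathway count to 0 in each; the cause was not tested. Dgat1 then turned to -0.11 for IL-12+IL-21 GFPneg against IL-12 GFPneg, and Adh5 to 0.94 for TGFb+IL-6 against IL-1b+IL-6+IL-23. With no filter the sorts gave 18 genes with IL-1b+IL-6+IL-23 (pathway 0) and 250 with TGFb+IL-6 (pathway 3), and IL-12+IL-21 against IL-12 gave 99 (pathway 2). A pseudocount of 0.1 gave 23 with IL-1b+IL-6+IL-23 sorts. Median-ratio scaling gave 9 with IL-12+IL-21 sorts and 19 with TGFb+IL-6 sorts. In these comparisons the all-gene median was 0.01 with it (0.24 unscaled) and 0 (0.37 unscaled), and the higher and lower calls to 3 and 6 (11 and 4 unscaled) and 7 and 12 (25 and 6). With that scaling they were 26 and 13 (33 and 8) with IL-1b+IL-6+IL-23 sorts, 38 and 23 (30 and 43) for IL-12+IL-21 against IL-12, 395 and 333 (260 and 412) for IL-1b+IL-6+IL-23 against IL-12, 839 and 729 (463 and 1015) for TGFb+IL-6 against IL-1b+IL-6+IL-23, and 250 and 227 (344 and 132) between GFPpos groups.

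Leaving out 1 library gave 0 to 3 genes (pathway 0 to 0) with IL-12+IL-21 sorts, 17 to 27 (0 to 0) with IL-1b+IL-6+IL-23 sorts, 8 to 8 (0 to 1) with TGFb+IL-6 sorts, 14 to 71 (0 to 0) for IL-12+IL-21 against IL-12, 298 to 560 (1 to 4) for IL-1b+IL-6+IL-23 against IL-12, 667 to 1410 (4 to 9) for TGFb+IL-6 against IL-1b+IL-6+IL-23 and 317 to 467 (0 to 2) between GFPpos groups. A group left with 1 library is assumed to vary like the others, and leaving out the only TGFb+IL-6 GFPpos library gave no value. No library used was over 50% ribosomal. The labels do not say whether replicate numbers pair the samples. Correlations of deviations between sorts of the same number (-0.0861 to 0.156) rest on groups of 2 or 3 libraries and cannot decide it. A replicate block raised the number of genes called in every comparison. It gave 23 in place of 15 with IL-12+IL-21 sorts and 135 in place of 73 for IL-12+IL-21 against IL-12. For the 6 members, 322 of 366 level differences moved by no more than the spread of the libraries, and 44 by more. The 322 include settings that could not move a level. Among these were leaving out libraries over 50% ribosomal and, for the IL-1b+IL-6+IL-23 sorts and between the GFPpos groups, taking all 21 libraries. For Dhrs3 between the TGFb+IL-6 sorts, listed at 0 in every library used, only taking all 21 libraries could move the difference.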

Other observations

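Genes beside the members on the chromosome were looked at after values were seen, in RefSeq on GRCm38.p6. Cyp11a1, the enzyme that starts steroid synthesis from cholesterol, lies 36.8 kb from Stra6 and stood at 12.4 TPM in the TGFb+IL-6 GFPpos library and 12.2 ± 1.92 TPM (SD, n = 2) in TGFb+IL-6 GFPneg cells, the groups in which Stra6 was lowest. It did not pass 1.32 TPM in the libraries of the other 5 groups. Beside Crabp2, Isg20l2 at 8.01 kb ranged from 2.14 to 10.2 TPM, and Nes and Bcan were listed at 0 in every library used. Tnfrsf8, which encodes CD30 and lies 339 kb from Dhrs3, averaged 31 ± 3.99 TPM in GFPpos cells and 13.2 ± 2.51 TPM in GFPneg cells with IL-1b+IL-6+IL-23 (SD, n = 3 each), a difference between sorts opposite in direction to that of Dhrs3. None of these values was tested.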
